A study of Mus musculus with 60 samples.

Results

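Cirbp and Rbm3, a pair of cold-inducible RNA-binding proteins, and the CDC-like kinases Clk1, Clk2, Clk3 and Clk4 were followed in mouse hippocampus after a single injection of an NMDA receptor antagonist. The members are these 6 of the 19057 genes named on the Illumina MouseWG-6 v2 array, read through every probe annotated with one of their symbols, which gave 14 of 45281 probes. Hippocampal mRNA was measured on 60 arrays, with 3 arrays in each of 20 groups. The mice were male C57BL/6J mice, 8 to 10 weeks old, injected i.p. with ketamine (20 mg/kg), memantine (15 mg/kg), PCP (5 mg/kg) or saline, or left naive, and tissue was taken 1, 2, 4 or 8 h later. The RNA of 2 mice was combined for each array, and the 3 pools of a group came from different mice. Within injected mice the time since injection and the hour of the day ran in parallel, and naive mice, which had no injection, were collected at the same times. Body temperature was not among the measurements used here.

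CIRBP and RBM3 are small glycine-rich proteins with an RNA recognition motif, and their transcripts accumulate in mammalian cells on mild cooling and decline on warming. CIRBP binds mRNAs of clock genes in mouse fibroblasts and affects their levels and polyadenylation, and RBM3 is known for its action on synapses of cooled mice. The CLK kinases phosphorylate serine- and arginine-rich (SR) splicing factors. Their activity rises when body temperature drops within the physiological range, which ties alternative splicing to the daily temperature rhythm, and transcripts of Clk1 and Clk4 are themselves regulated by retention of introns in the nucleus. Ketamine, PCP and memantine all block the channel of the NMDA receptor. Memantine is built on adamantane, the other two drugs on an arylcyclohexylamine.

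The only sequence shown is the promoter of Cirbp, since Cirbp was the member that changed with time. The promoter table of RefSeq (GRCm38.p6) covered 4 of the 6 genes, Cirbp, Clk2, Clk3 and Clk4. It gives 250 bases before and 50 bases after a start site, and lists 2 start sites for Cirbp. The window of the first, chr10:80167589-80167888 on the plus strand, has in capitals each GC box (GGGCGG) and each CCAAT box (CCAAT), on either strand.
Cirbp: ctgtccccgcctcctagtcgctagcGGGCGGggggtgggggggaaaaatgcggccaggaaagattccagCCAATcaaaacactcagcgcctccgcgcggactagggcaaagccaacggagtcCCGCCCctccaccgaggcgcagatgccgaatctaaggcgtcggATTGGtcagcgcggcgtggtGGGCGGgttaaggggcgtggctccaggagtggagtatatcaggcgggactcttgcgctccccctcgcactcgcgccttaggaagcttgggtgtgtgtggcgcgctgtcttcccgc
The window held 3 GC boxes and 2 CCAAT boxes. A GC box was found in 35.7% and a CCAAT box in 37.4% of all 32851 promoter windows of the same length. Neither the E-box CACGTG (7.15% of windows) nor the heat shock element GAANNTTC (7.86%) was found in it on either strand, which says only that these letters are not in this window. The E-box occurred once in the window of Clk2 and in none of those of Clk3 and Clk4.

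A raised background set 7 arrays apart, all on 2 of the 10 slides, with the 5th percentile of their signals at 314 to 859.5, against 99.7 to 240.1 for the remaining 53. They were 1 memantine, 3 PCP, 2 saline and 1 naive array, with none of ketamine. A slide stands here for a set of 6 arrays adjacent in the order of the samples, and the sample titles name no slide. The markers of hippocampal neurons on the array, 7 of 8 listed, lay at a median percentile of 93.8 of all probes (range 47.7 to 98.4). The mean of the choroid plexus markers ran between 7.75 and 11.35 (log2) over the arrays, and on ketamine 2 h replicate 2 the mean of the striatal markers was 11.5, against 8.32 to 9.11 on all others. The part of these tissues in the results was not tested beyond the fits given below. In bulk tissue, fewer cells of a type and less RNA per cell cannot be told apart.

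The level of a probe is given as log2 intensity after background correction and quantile normalization, and levels of different probes are not compared, since probes differ in their own brightness. Cirbp was read by a single probe (ILMN_2761594) with a mean of 10.23, at percentile 89.0 of all probes, and with an SD of 0.30 over the 60 arrays. Rbm3 was read by a pair of dim probes, ILMN_1253012 with a mean of 7.18 at percentile 57.4 and ILMN_2985568 with a mean of 6.84 at percentile 45.5. Signals near these levels lie close to background and understate any change. RefSeq also lists a pseudogene, Rbm3-ps, and whether either probe reads it was not examined.

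Of the kinases, Clk1 had 2 probes, Clk2 had 3, Clk3 had 2 and Clk4 had 4. Clk1 had a bright probe (ILMN_2428301, mean 10.90, percentile 92.7) and a dim probe (ILMN_2767905, mean 6.55, percentile 25.7). The probes of Clk2 were ILMN_1238520 at 9.55, ILMN_2885016 at 9.35 and the dim ILMN_1237842 at 7.55, and those of Clk3 were ILMN_2801404 at 10.63 and the dim ILMN_1224891 at 6.64. Clk4 was read by ILMN_2851710 at 11.91 (percentile 96.5), ILMN_2745251 at 10.31, ILMN_2737517 at 9.94 and ILMN_2577151 at 7.51, and the annotation ties the last of these to another transcript record than the other three. In the following text the probes of a gene are numbered from the brightest down, so that probe 1 is the brightest.

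**Figure D1:**
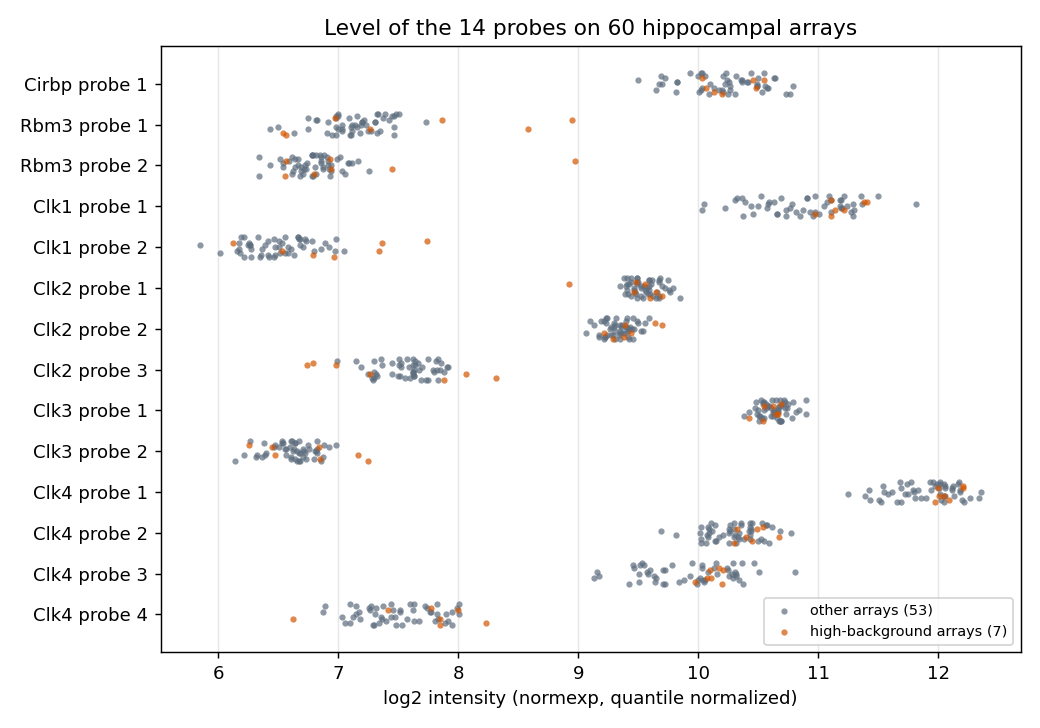
Each point is the log2 intensity of a probe (rows) on one of 60 hippocampal arrays, with the 7 high-background arrays in orange. Clk3 probe 1 spread least, between 10.38 and 10.90, and the highest points of both Rbm3 probes, 8.94 and 8.98, belong to high-background arrays.

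The spread over the 60 arrays differed among the members. Clk3 probe 1 ran between 10.38 and 10.90 (SD 0.11) and Clk2 probe 2 between 9.07 and 9.70 (SD 0.13), whereas Clk1 probe 1 ran between 10.03 and 11.81 (SD 0.38) and Clk4 probe 3 between 9.13 and 10.80 (SD 0.36). Within groups, the residual SD was 0.12 for Clk3 probe 1, 0.33 for Clk1 probe 1 and 0.18 for Cirbp, which had an SD of 0.30 over all arrays.

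The first comparison concerned the course over 1 to 8 h. Cirbp rose with time in the 48 arrays of saline and the 3 drugs, and the difference from 1 h averaged 0.21 at 2 h (95% interval 0.05 to 0.37), 0.32 at 4 h (0.16 to 0.48) and 0.59 at 8 h (0.43 to 0.74) on the log2 scale. The last is a 1.5-fold increase (adjusted p = 0.0001, limma F test of the time factor). Cirbp was the only one of the 14 probes past the threshold, an adjusted p under 0.05, while 117 of all probes, or 0.258%, passed it, 45 higher and 72 lower by their largest difference. Cirbp ranked 25 among all probes by this test.

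Across all treatments, the 15 arrays at 8 h ran between 10.24 and 10.79 with a median of 10.55, and the 15 arrays at 1 h between 9.50 and 10.26 with a median of 10.02. The ranges overlapped through 1 array on each side, and 14 of 15 arrays at 8 h lay above every array at 1 h. The 2 h arrays had a median of 10.17 (9.68 to 10.49) and the 4 h arrays a median of 10.30 (10.01 to 10.63).

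The increase was seen in every treatment, naive mice included. In ketamine mice the 1 h arrays of Cirbp read 10.09, 10.24 and 10.03, the 2 h arrays 10.23, 10.41 and 10.27, the 4 h arrays 10.31, 10.23 and 10.53, and the 8 h arrays 10.64, 10.79 and 10.77. In memantine mice the 1 h arrays read 9.50, 10.13 and 10.03, the 2 h arrays 10.36, 10.17 and 10.20, the 4 h arrays 10.10, 10.21 and 10.63, and the 8 h arrays 10.49, 10.24 and 10.55. All arrays at 8 h were above all arrays at 1 h in both treatments, and the ketamine arrays at 8 h were also above those at 4 h. In PCP mice the 1 h arrays read 10.07, 9.93 and 9.83, the 2 h arrays 10.19, 10.00 and 10.49, the 4 h arrays 10.01, 10.03 and 10.27, and the 8 h arrays 10.73, 10.46 and 10.57, again without overlap between 8 and 1 h.
In saline mice the 1 h arrays read 10.02, 9.82 and 10.02, the 2 h arrays 10.06, 9.70 and 10.13, the 4 h arrays 10.50, 10.55 and 10.20, and the 8 h arrays 10.37, 10.58 and 10.55. In naive mice the 1 h arrays read 10.26, 9.65 and 9.69, the 2 h arrays 9.68, 9.81 and 9.72, the 4 h arrays 10.49, 10.30 and 10.36, and the 8 h arrays 10.48, 10.44 and 10.42. In both saline and naive mice all 6 arrays at 4 and 8 h were above all 6 at 1 and 2 h.

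**Figure D2:**
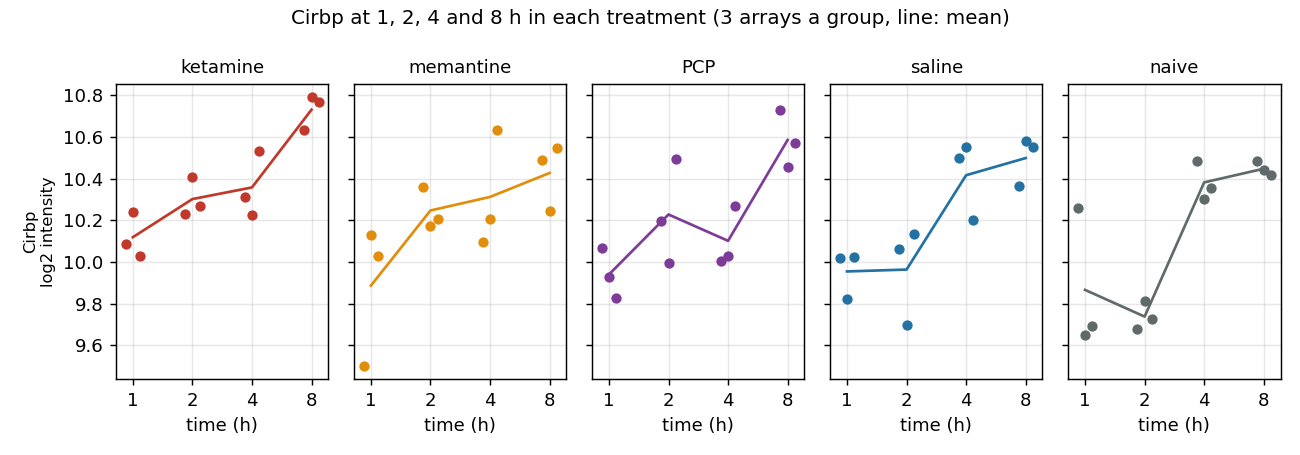
Log2 intensity of Cirbp against time (1, 2, 4 and 8 h, evenly spaced) in ketamine, memantine, PCP, saline and naive mice, with a point for each of 3 arrays and a line through the means. The means at 8 h lie between 10.43 and 10.73 and those at 1 h between 9.87 and 10.12.

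The difference between 8 and 1 h was 0.61 with ketamine, 0.54 with memantine, 0.65 with PCP, 0.54 with saline and 0.58 in naive mice (SE 0.16 each, 3 arrays against 3). No member passed in these 5 differences, where 0.0133, 0.0265, 0.0177, 0.0133 and 0.00883% of all probes did in the same order of treatments, nor in those between 2 or 4 h and 1 h, where 0 to 0.0287% did (0.0155% for memantine at 4 h). For Cirbp the adjusted p of the difference between 8 and 1 h ran between 0.192 with PCP and 1.00 with saline (limma). In the F test of a whole course Cirbp missed the threshold in each single treatment, with an adjusted p of 0.0820 in naive mice and of 0.348 to 1.00 in the others. Of all probes 0.0221% passed it with ketamine, 0.0839% with memantine, 0.0353% with PCP, 0.0243% with saline and 0.00663% in naive mice. Cirbp passed in naive mice when naive 1 h replicate 1, the array at 10.26, was left out (adjusted p = 0.0087), and likewise without naive 8 h replicate 2 (0.0429) or memantine 1 h replicate 1, no naive array (0.0436).

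No difference in the course of Cirbp between injected and naive mice passed the test. The change between 1 and 8 h exceeded that of naive mice by 0.03 with ketamine (95% interval -0.41 to 0.47), by -0.04 with memantine (-0.48 to 0.40), by 0.06 with PCP (-0.38 to 0.51) and by -0.04 with saline (-0.48 to 0.40). The intervals include differences nearly as large as the change itself. In these 4 comparisons none of the 14 probes and 0% of all probes passed. The unadjusted limma p was under 0.05 for 0, 1, 2 and 1 of the 14, and for 1229, 2346, 2501 and 1994 of all 45281.

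The rise of Cirbp held on every slide. The arrays at 4 and 8 h exceeded those at 1 and 2 h of the same slide, 3 against 3, by 0.17 to 0.60 with a median of 0.46, and were higher on 10 of 10 slides. With the slide as a block the difference between 8 and 1 h was 0.60, with the choroid plexus marker mean as a covariate it was 0.60, and without the 7 high-background arrays it was 0.61. In the 24 arrays of naive and saline mice alone it was 0.56 (adjusted p = 0.0255), where 18 of all probes passed.

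The other members showed no such course. The difference between 8 and 1 h over the 48 arrays ran between -0.13 (Clk4 probe 1, 95% interval -0.34 to 0.09) and 0.11 (Clk1 probe 2, -0.16 to 0.39) in the 13 other probes. Some earlier differences from 1 h were larger. They were -0.31 for Rbm3 probe 1 (-0.60 to -0.02) and -0.23 for Clk4 probe 1 (-0.45 to -0.01) at 4 h, and -0.26 for Clk4 probe 3 (-0.52 to -0.002) at 2 h. For each of the 13 probes the adjusted p of the time factor was 0.96 or more (limma F test). Clk3 probe 1, the steadiest, was at 10.66 ± 0.11 at 8 h and 10.63 ± 0.12 at 1 h (SD, n = 15 each).

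The genes whose 20 group means correlated best with those of Cirbp were Ciart (r = 0.93, and 0.87 over the 60 arrays), Lmna (0.93 and 0.77), Arrdc4 (0.93 and 0.72), Cracdl (0.89 and 0.67) and Ppp1r1a (0.89 and 0.71). Ciart encodes a repressor of the circadian clock, Lmna encodes the nuclear lamins A and C, and Ppp1r1a encodes an inhibitor of protein phosphatase 1. The points share arrays and slides and the same hours, so the correlations are descriptive. Of these 5, Ciart (0.80 between 8 and 1 h, adjusted p = 8.0e-08 by the limma time factor) and Arrdc4 (0.37, adjusted p = 0.0412) rose with time. The 5 were picked for their likeness to Cirbp on the same arrays, so a rise was partly built in. These p-values are therefore no separate evidence.

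Among 17 measured clock genes, each read at its brightest probe, 2 rose and none fell by the time factor. Dbp, a clock-controlled transcription factor, rose by 0.90 between 1 and 8 h (adjusted p = 6.4e-10, limma), and Ciart, at another probe than above, by 0.77 (adjusted p = 0.0001). Per1 differed by -0.04, Per2 by 0.12, Arntl by -0.38 and Bhlhe40 by -0.28 without passing the threshold. The median of the list was 0.01, against 0.00 over all probes.

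The heat shock list held 14 measured genes, of which 1 fell and none rose by the time factor. Bag3, a cochaperone of Hsp70, fell by 0.35 between 1 and 8 h (adjusted p = 0.0016, limma). The difference was below 0 for 13 of the 14 and the median was -0.21, against 0.00 over all probes, of which 49.1% were below 0. These genes were read on the same arrays, and the list was not tested as a set. Hspa1a, a stress-inducible Hsp70, differed by -0.45, while Hspa1b, the other, differed by 0.02 and was the only gene of the list above 0. Hspa8, their constitutive relative, differed by -0.20, and Dnajb1, an Hsp40 cochaperone, by -0.23. None of these passed.

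None of the 15 SR splicing factors, 8 other splicing kinases and 8 cold shock domain and related RNA-binding genes passed in the time factor. Their medians between 1 and 8 h were 0.00, -0.02 and 0.02, and the lowest adjusted p in each list was 0.699, 0.117 and 0.972.

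The second comparison set each drug against saline of the same time. None of the 14 probes passed in any of the 12 comparisons (168 tests, lowest adjusted p = 0.293), in which 0 to 25 of all probes passed (0 to 0.0552%, with 0.0133% for memantine at 4 h). The unadjusted limma p was under 0.05 in 13 of the 168 tests, and for 450 to 4809 of all 45281 probes per comparison. Drug and saline arrays did not overlap in 20 of the 168, or 11.9%, against 8.55% over all probes.

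**Figure D3:**
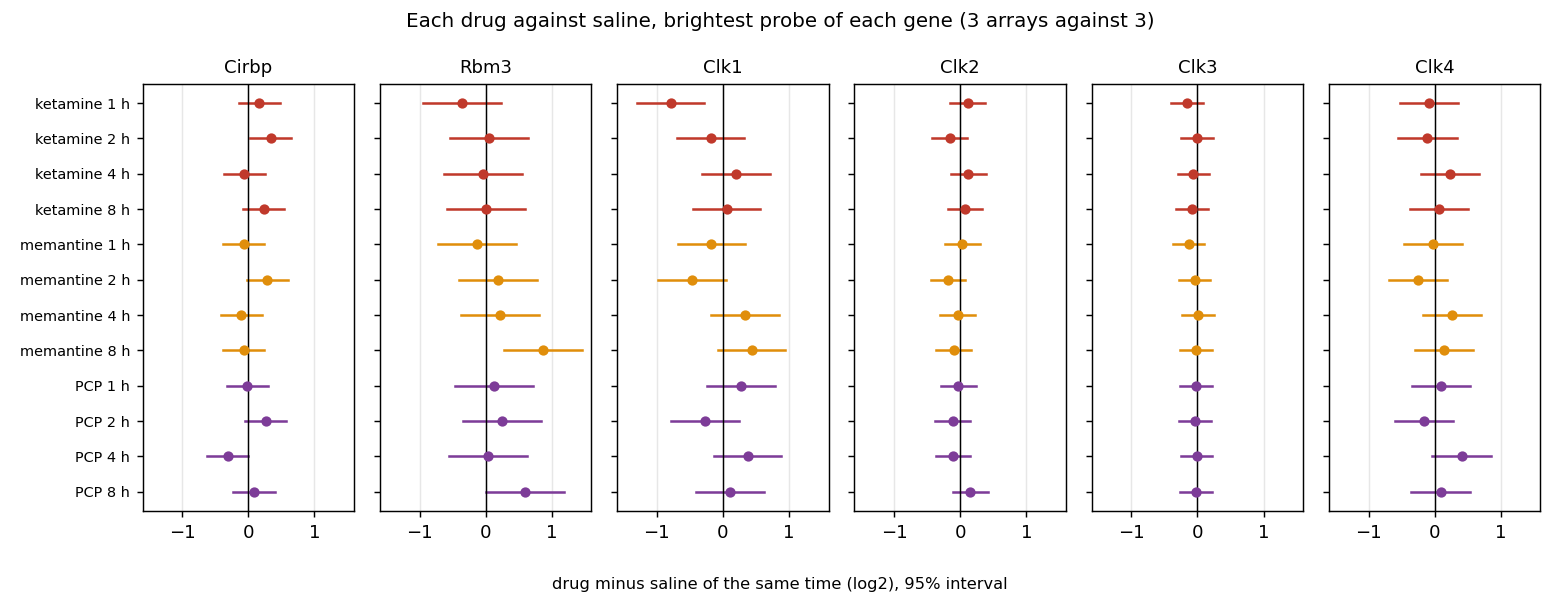
Difference of ketamine, memantine and PCP from saline (log2) at 1, 2, 4 and 8 h for the brightest probe of each gene, with bars for the 95% interval, 3 arrays against 3. The intervals of Clk3 are narrow and include 0 throughout, and those of Rbm3 and Clk1 are wide.

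At 2 h the mean of Cirbp was higher with each drug than with saline, and no difference passed the threshold. The mean was 10.30 ± 0.10 with ketamine, 10.25 ± 0.10 with memantine and 10.23 ± 0.25 with PCP, against 9.96 ± 0.23 with saline and 9.74 ± 0.07 in naive mice (SD, n = 3 each). All 3 ketamine and all 3 memantine arrays were above all saline arrays, while PCP overlapped with saline. The differences from saline were 0.34 (95% interval 0.03 to 0.65, adjusted p = 0.687), 0.28 (-0.03 to 0.60, 0.520) and 0.26 (-0.05 to 0.58, 0.665), and they share the saline arrays. Without ketamine 2 h replicate 2, the array with striatal markers, the ketamine difference was 0.28. Without saline 2 h replicate 2, the lowest saline array at 9.70, the 3 differences were 0.20, 0.15 and 0.13, and that of PCP was 0.13 also without PCP 2 h replicate 3. With the slide as a block they were 0.23, 0.43 and 0.32.
Each drug was also set against naive mice of the same time, a comparison chosen after the values were seen. The differences at 2 h were 0.56 with ketamine (95% interval 0.25 to 0.88), 0.51 with memantine (0.20 to 0.82) and 0.49 with PCP (0.18 to 0.80), each with an adjusted p of 1.00. Of all probes 0, 0.0398 and 0% passed at 2 h, in the same order. At 1, 4 and 8 h the differences were 0.25, -0.02 and 0.28 with ketamine. They were 0.02, -0.07 and -0.02 with memantine, and 0.07, -0.28 and 0.14 with PCP. Saline exceeded naive mice by 0.23 at 2 h (95% interval -0.09 to 0.54).

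At the other times the differences of Cirbp from saline had no common direction. They were 0.16, -0.06 and 0.23 at 1, 4 and 8 h with ketamine, -0.07, -0.10 and -0.07 with memantine, and -0.01, -0.32 and 0.09 with PCP (SE 0.16 each). Ketamine arrays were above all saline arrays also at 1 and 8 h. Averaged over the 4 times Cirbp was 0.17 higher with ketamine (95% interval 0.02 to 0.32, adjusted p = 0.754), 0.01 with memantine (-0.18 to 0.20) and 0.01 with PCP (-0.16 to 0.17). Within slides the ketamine arrays exceeded the saline arrays on 9 of 10 slides by a median of 0.14, the memantine arrays on 7 (median 0.08) and the PCP arrays on 5 (median -0.01), after the mean of each time was removed.

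Rbm3 did not follow Cirbp. At 8 h probe 1 was 7.09, 6.50 and 6.98 with ketamine, 7.10, 7.10 and 8.94 with memantine, 7.46, 7.87 and 7.03 with PCP, 6.81, 6.43 and 7.32 with saline, and 8.58, 7.39 and 7.19 in naive mice. Probe 2 was 6.99, 6.87 and 6.68 with ketamine, 6.81, 6.93 and 8.98 with memantine, 6.34, 6.56 and 6.92 with PCP, 7.17, 6.73 and 6.79 with saline, and 7.44, 6.82 and 6.54 in naive mice. The 2 arrays that stood apart, memantine 8 h replicate 3 and naive 8 h replicate 1, were those with the highest background of all, with a 5th percentile of 859.5 and 711.

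With these arrays the difference of memantine from saline at 8 h was 0.86 at probe 1 (95% interval 0.27 to 1.45, adjusted p = 0.654) and 0.68 at probe 2 (0.15 to 1.20, adjusted p = 0.654). Without the 7 high-background arrays, in a new normalization, it was 0.23 (-0.17 to 0.64) and -0.03 (-0.37 to 0.31). Saline differed from naive mice at 8 h by -0.87 at probe 1 (adjusted p = 0.440), and by -0.44 without those arrays (adjusted p = 0.95). The high means of Rbm3 at 8 h in memantine and naive mice thus rested on 1 array each. On the 53 other arrays probe 1 ran between 6.43 and 7.73 and probe 2 between 6.34 and 7.26, and the correlation between the probes was 0.58 over 60 arrays and 0.09 over 53.

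**Figure D4:**
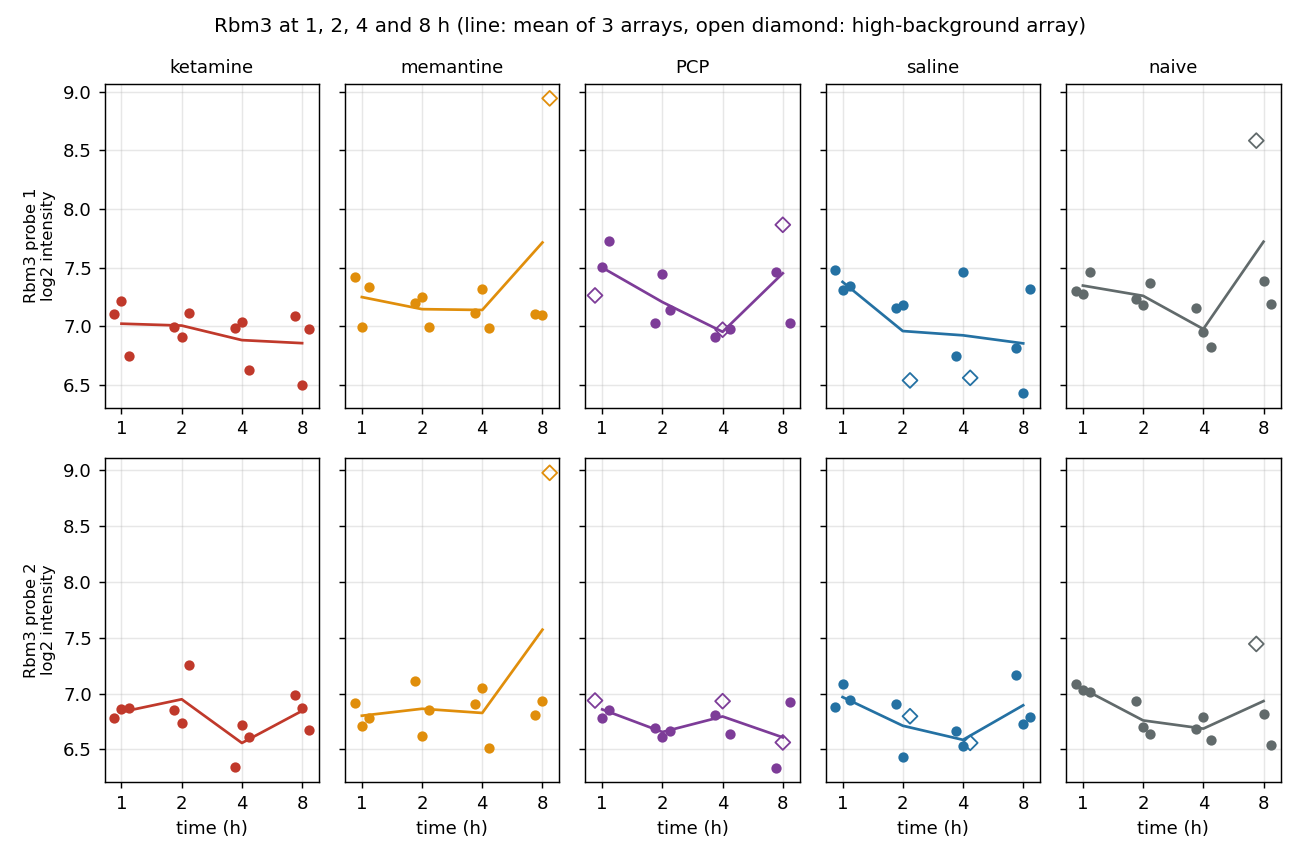
Log2 intensity of both Rbm3 probes against time (1, 2, 4 and 8 h, evenly spaced) in ketamine, memantine, PCP, saline and naive mice, with lines through the means of 3 arrays and open diamonds for high-background arrays. The 8 h means of memantine and naive mice are raised by 1 diamond each.

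At 1 h both Rbm3 probes were lower on all ketamine arrays than on all saline arrays. Probe 1 averaged 7.02 ± 0.25 with ketamine and 7.38 ± 0.09 with saline, and probe 2 averaged 6.84 ± 0.05 with ketamine and 6.97 ± 0.11 with saline (SD, n = 3 each). Neither difference passed the threshold. These 2 were the only comparisons of Rbm3 with saline without overlap, beside 22 with overlap. Over all probes 8.55% of comparisons were without overlap, a similar share. The 5 genes whose group means were most like those of probe 1, Rtf1, Luc7l2, Daam1, Ankrd45 and Lonrf1, had r between 0.79 and 0.83 over the 20 groups but only between 0.23 and 0.48 over the 60 arrays.

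Clk1 probe 1 and Clk4 probe 3 moved together from array to array. Over the 60 arrays the correlation of Clk1 probe 1 with Clk4 probe 3 was 0.95, it was 0.97 over the 20 group means and 0.93 for the deviations of arrays from their group mean. Among the 22639 other probes above the median signal, Clk4 probe 3 was the one most correlated with Clk1 probe 1, and 102 had r above 0.8. The 2 genes lie on chromosomes 1 and 11. As paralogs they are similar in sequence, the probe sequences were not used here, and whether the probes also read each other's transcripts was not tested.

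The 4 probes of Clk4 did not agree among themselves to the same degree. Probe 1 correlated with probe 2 at 0.75 and with probe 3 at 0.33, and probe 3 with probe 4 at 0.64, over 60 arrays. Clk1 probe 1 correlated with its own dim probe 2 at 0.15. Clk4 probe 4 correlated with Clk1 probe 1 at 0.61, probe 2 at 0.39 and probe 1 at 0.33.

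**Figure D5:**
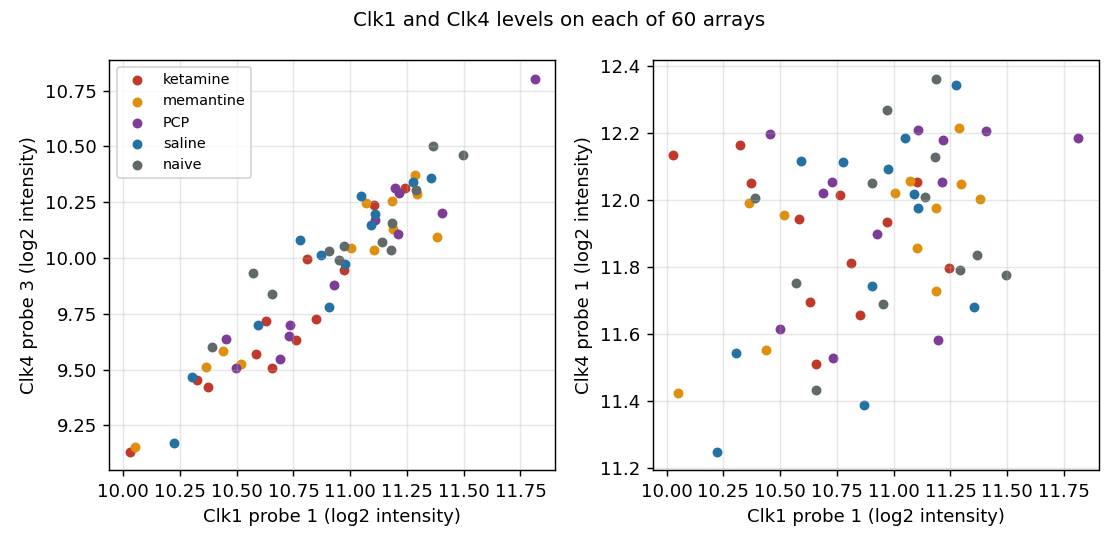
Log2 intensity of Clk4 probe 3 (left) and of Clk4 probe 1 (right) against Clk1 probe 1 on each of 60 arrays, coloured by treatment. Probe 3 follows Clk1 (r = 0.95) over arrays of all 5 treatments, and probe 1 follows it less closely (r = 0.33).

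The largest departures from saline among the kinases were those of ketamine at 1 h. Clk1 probe 1 was 10.37, 10.63 and 10.03 with ketamine, 11.07, 11.29 and 10.52 with memantine and 11.21, 11.22 and 11.81 with PCP, against 11.35, 10.78 and 11.28 with saline. Clk4 probe 3 was 9.42, 9.72 and 9.13 with ketamine, against 10.36, 10.08 and 10.34 with saline. All ketamine arrays were below all saline arrays at both probes. The difference was -0.79 for Clk1 probe 1 (95% interval -1.30 to -0.28) and -0.84 for Clk4 probe 3 (-1.32 to -0.35). The adjusted p was 1.00 each, against unadjusted p of 0.0031 and 0.0012 (limma), in a comparison where 2 of all probes passed (0.00442%). With the slide as a block both were -0.65. At Clk4 probes 1 and 2 the difference of ketamine from saline at 1 h was -0.09 (-0.53 to 0.35) and -0.21 (-0.55 to 0.14), with overlapping arrays. The arrays also overlapped at Clk1 probe 2, with 6.25 ± 0.15 with ketamine and 6.39 ± 0.18 with saline. The same held at Clk4 probe 4, with 7.45 ± 0.08 and 7.71 ± 0.24 (SD, n = 3 each).

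At 2 h Clk1 probe 1 averaged 10.79 ± 0.20 with ketamine and 10.98 ± 0.07 with saline, and at 8 h 10.91 ± 0.18 with ketamine and 10.85 ± 0.25 with saline (SD, n = 3 each). In PCP mice it averaged 10.71 ± 0.22 at 2 h, against 11.41 ± 0.35 at 1 h, a difference of -0.71 (adjusted p = 1.00). At 8 h all memantine arrays lay above all saline arrays, with 11.28 ± 0.10 against 10.85 ± 0.25. Naive mice, at 11.33 ± 0.18 at 8 h, lay at the level of memantine. Over all probes 8.55% of comparisons of drug and saline arrays were without overlap. The interaction of drug and time, which asks whether the course differs between drugs and saline, gave an adjusted p of 1.00 for all 14 probes (unadjusted p = 0.0300 for Clk1 probe 1 and 0.0288 for Clk4 probe 3), and 0 of all probes passed (0%).
The genes most like Clk1 over the 20 group means were Vstm2a (r = 0.95, and 0.86 over 60 arrays), Map2 (0.93 and 0.83), a microtubule-associated protein of dendrites, Trmt1l (0.93 and 0.84), Rab5a (0.92 and 0.87), a GTPase of early endosomes, and Slc25a36 (0.91 and 0.80), a mitochondrial carrier of nucleotides. Those most like Clk4 probe 1 were Ints6, Bhlhb9, Gfpt1, Eif4g2 and Miga1, with r between 0.83 and 0.89.

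For Clk2 and Clk3 it was counted how often drug and saline arrays were apart, without a test between the genes. At Clk3 probe 1 the drug minus saline differences ran between -0.16 and 0.01, and no drug arrays were clear of the saline arrays at either probe. At Clk2 drug and saline arrays did not overlap in 9 of 36 comparisons, with drug above in 3 and below in 6, against 8.55% over all probes. The comparisons share saline arrays, and the Clk2 probes correlated with each other only at -0.28 to 0.20 over the 60 arrays. At Clk2 probe 1 the differences ran between -0.19 and 0.15 and at probe 2 between -0.15 and 0.26. The dim Clk2 probe 3 had a wider range, -0.64 to 0.12. There it was 7.18, 7.51 and 7.30 with memantine and 7.63, 6.99 and 7.63 with PCP at 2 h, against 7.81, 7.79 and 8.31 with saline, of which the last is a high-background array. The difference of memantine was -0.64 (95% interval -1.10 to -0.18, adjusted p = 0.293) with the 7 high-background arrays and -0.51 without them (adjusted p = 0.334), and it was -0.41 without background correction.
The genes most like Clk2 probe 1 were Cd163l1, Pif1, Arhgap45, Ube2q2 and Sapcd2 (r between 0.75 and 0.83), and those most like Clk3 probe 1 were Copg1, Rbck1, Necab2, Slc22a17 and Vgf (0.73 to 0.77). Their r over the 60 arrays was lower, between 0.18 and 0.54.

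Over the 4 times together, no member passed for any drug against saline, where 1, 11 and 1 of all probes passed with ketamine, memantine and PCP (0.00221, 0.0243 and 0.00221%). The largest mean difference among the members was -0.32 at Clk2 probe 3 with PCP (95% interval -0.56 to -0.07), and this was -0.13 without the high-background arrays (-0.36 to 0.11). The drug factor over the 48 arrays gave 9 of all probes (0.0199%) and no member, with a lowest adjusted p of 0.951. No member passed for saline against naive mice, where 0 to 2 of all probes passed at a single time (0 to 0.00442%), and no probe passed over the 4 times (0%).

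The drugs were given at different doses, so that their values stand side by side. Cirbp averaged 10.38 ± 0.25 with ketamine, 10.22 ± 0.29 with memantine, 10.21 ± 0.29 with PCP, 10.21 ± 0.30 with saline and 10.11 ± 0.36 in naive mice (SD over 12 arrays, times included). None of the 14 probes passed over all probes in any of the 3 pairs of drugs (0% of all probes passed). Across the 42 tests the largest differences were 0.37 between memantine and ketamine (95% interval 0.08 to 0.66) and -0.34 between ketamine and PCP (-0.63 to -0.05) at Rbm3 probe 1, and -0.37 between ketamine and PCP at Clk1 probe 2 (-0.66 to -0.08), both dim probes. The limma p adjusted over the 3 pairs of a probe was 0.0361, 0.0361 and 0.0440, and that over all probes was 0.985, 0.650 and 0.650. Without the high-background arrays the 3 differences were 0.22 (0.05 to 0.40), -0.33 (-0.52 to -0.14) and -0.11 (-0.30 to 0.09). With those arrays, Rbm3 probe 2 differed by 0.22 between memantine and ketamine (-0.08 to 0.52). Between ketamine and PCP it differed by 0.07 (-0.23 to 0.37), opposite in sign to probe 1. Clk1 probe 1 differed by -0.30 between ketamine and PCP (-0.57 to -0.03). The 3 highest of the 60 arrays at Clk1 probe 2, at 7.33, 7.37 and 7.74, were the 3 high-background arrays of PCP.

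None of the splicing, heat shock, cold shock or clock genes of the lists passed in any of the comparisons of a drug with saline, at a single time or over the 4 times. The median of the SR splicing factors was 0.06 with ketamine, 0.03 with memantine and 0.06 with PCP over the 4 times, against 0.00 over all probes in each.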

How the data were processed

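Hippocampal mRNA abundance was measured on 60 arrays. The authors deposited intensities, which are mean bead signals per probe from BeadStudio before any normalization, and log2 values, which their methods describe as background subtracted and quantile normalized. The deposited log2 values, with a median of 7.82 on every array, served as an alternative only. After matching medians they lay a mean of 0.036 away from log2 intensities after quantile normalization, and all 60 columns were nearest their own array. No per-sample column was left out.

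From the deposited intensities, normexp correction (offset 50), quantile normalization and log2 transformation were done with limma 3.58.1 under R 4.3.3, for all 45281 probes, 34885 of them with 1 gene symbol. Moderated tests came from limma's lmFit and eBayes, and p-values were adjusted by the Benjamini-Hochberg method across the whole array. Single times and courses came from 1 fit over 60 arrays, a drug over 4 times from the 24 arrays of drug and saline, the factors and their interaction from 48, and pairs of drugs from 36. Named genes are the members, the 5 genes most correlated with each over the 20 group means among probes above the median signal, and genes of the lists, of which those not called were picked as examples after their values were seen. The members and lists were chosen with earlier results of these data known. The fits were tested on simulated data with independent noise on each array. That simulation cannot show how they behave where arrays of a slide are alike. The number of arrays limits the precision.

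Alternatives were no background correction, an offset of 16, the deposited log2 values, the brighter 50% of probes, trended and robust or ordinary variances, a slide block, a replicate block, a choroid plexus covariate, omission of the 7 high-background arrays or of each array in turn, and other sets of samples. Omission of the 7 arrays under the same normalization, differences between times within a slide, and naive mice as control at each time were added after the data were seen.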

Additional observations from a re-analysis of the deposited data

Results flagged for a closer look

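Clk2 probe 1 (ILMN_1238520) lay above all saline arrays with ketamine and below all saline arrays with PCP at 4 h. It was 9.62, 9.73 and 9.68 with ketamine and 9.44, 9.48 and 9.40 with PCP, against 9.49, 9.56 and 9.60 with saline. The means of ketamine and PCP differed by 0.23. That difference at 4 h was not tested itself, and the interaction of drug and time over 48 arrays gave an adjusted p of 1.00 for this probe. Naive mice, at 9.75, 9.64 and 9.60, lay at the level of ketamine. No group held enough arrays to single out one of them by its distance from the others.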

How the results depend on the processing

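The rise of Cirbp with time passed under all 13 alternatives and in all 48 fits that left out 1 array, with 0.53 to 0.61 between 8 and 1 h and adjusted p between 5.2e-07 and 0.0255. Leaving out 1 array gave 0.54 to 0.62. It was the only member called in each. With the replicate block the difference was 0.59, and the block changed no call. The replicate numbers did not pair arrays of different groups, since deviations of arrays with the same number had a mean correlation of -0.01 and those of the same slide 0.19. The count of member probes called in the courses of single treatments was 0, and became 1 without background correction, from the authors' values, in the brighter 50% of probes and under trended, robust variances, each time Cirbp in naive mice. Leaving out 1 array gave 0 to 1. Without memantine 8 h replicate 1 or 2, Rbm3 probe 2 passed between 8 and 1 h of memantine (1.15 and 1.09), which left the high-background array as 1 of 2. Rbm3 probe 2 turned its direction in memantine against saline at 8 h, with -0.0307 without the 7 high-background arrays and -0.0254 under the same normalization, and ran between -0.0254 (without memantine 8 h replicate 3) and 1.06 when 1 array was left out. No member was called in any other comparison followed under the alternatives. The differences of 2 or 4 h from 1 h in a treatment, and of each drug from naive mice at single times, were not followed there. The time factor called 117 of all probes, and 18 to 200 under the alternatives.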
